A study of Mus musculus with 5 samples.

Results

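The transcripts of 30 genes that control mitosis and the cell cycle were followed in 5 RNA-seq libraries of mouse erythroid cells. The 30 genes were taken by name (Mki67, Top2a, Ccna2, Ccnb1, Ccnb2, Cdk1, Cdc25c, Plk1, Aurka, Aurkb, Bub1, Bub1b, Mad2l1, Ttk, Cdc20, Ube2c, Kif11, Kif20a, Tpx2, Cenpe, Cenpf, Nusap1, Birc5, Foxm1, Mybl2, E2f1, E2f2, E2f8, Ccne1 and Ccne2). All 30 were found among the 39179 genes of the deposited tables, each on 1 row, and all 30 were among the 15006 genes abundant enough to be tested.

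Cells carrying CD71, the transferrin receptor of growing red cell precursors, had been collected with antibody-coated magnetic beads, and their polyA RNA was sequenced. The control was 1 library from the bone marrow of untreated mice. Mice exposed to UVB light on the skin, at 50 mJ/cm2, gave 2 spleen libraries (UVB 1 and UVB 2), and mice given B16 melanoma cells under the skin gave another 2 (tumor 1 and tumor 2). The strain label is C57BL/6 for the control and both UVB libraries, C57BL/7 for tumor 1 and C57BL/8 for tumor 2, and no age, sex or genetic change is labelled. The last number of the label rises in sample order over the tumor libraries, and no source used here says if this is an entry error. No spleen of an untreated mouse was among these samples, so organ and treatment cannot be told apart in either comparison with the control. No source used here says if the paired libraries are from different mice, so p-values measure only the spread between these libraries, which may be technical.

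In a dividing cell, cyclin E with its kinase Cdk2 starts DNA replication, and cyclins A and B with Cdk1 then drive entry into mitosis. The spindle checkpoint holds back the anaphase-promoting complex, a ubiquitin ligase, until every chromosome is attached to the spindle, after which its co-activator Cdc20 lets it degrade cyclin B and the chromosomes separate. Red cell precursors divide several times while they make hemoglobin and leave the cycle before they lose their nucleus, and E2F factors and cyclin E are known from mouse genetics to matter in this sequence.

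Sequencing depth was 5003923 to 5921270 gene reads per library. Values are given as deposited, as CPM, the reads of a gene scaled to a common total in each library. The selected cells carried the erythroid genes that were looked for, with Tfrc, which encodes CD71, at 665 CPM in the control, 776 and 719 CPM in UVB 1 and 2, and 802 and 716 CPM in tumor 1 and 2. Markers of other blood cells were present as well. Over 10 B cell genes, none at 0 reads in any library, the summed level was 1394 CPM in the control, 2131 and 2102 CPM in UVB 1 and 2, 487 CPM in tumor 1 and 1522 CPM in tumor 2. Over 9 genes of pro-B and pre-B cells it was 1392 CPM in the control and between 11.9 and 43.0 CPM in the spleen libraries, and over 13 genes of granulocyte precursors 1106 CPM against 42.9 to 116 CPM. Vpreb2, a defining gene of pre-B cells, had 0 reads in all 4 spleen libraries. Dividing precursors of these other lineages also use the 30 genes, and their part in the results was not tested. In libraries made from many cells, fewer cells of a kind and less RNA per cell cannot be told apart.

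Many mitotic genes share promoter elements known from human and mouse cells. The CHR, with the letters TTTGAA, helps to keep them silent early in the cycle, and upstream CCAAT boxes are bound by the factor NF-Y. Start sites from RefSeq (GRCm38.p6) gave 24 windows for 23 of the 30 genes, each reaching from 250 bases before the start to 50 bases after it. Aurkb, Ccna2, Ccne2, Cdc25c, Foxm1, Kif20a and Tpx2 had no window in the table used. Searched on both strands, TTTGAA was found in 14 of the 24 windows (58.3%), against 17.9% of all 32851 windows, and CCAAT in 18 (75.0%), against 37.4%. Both together were found in 14 windows (58.3%), against 6.95% of all windows. The letters of E2F sites were searched as GCGGGAA, as the more T-rich form TTTGGCG, and as the related form TTTCGCG. At least 1 of these was found in 2 windows (8.33%), against 6.72%, and 6 windows (25.0%, against 47.9% of all) held none of the 3 motifs. A CCAAT match and a TTTGAA match can share a base, and a match is a run of letters and not a measured binding site.

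The 150 bases before the start are shown for 6 genes, to let the layout be seen in genes of different roles whose levels are described below. They are written 5′ to 3′ on the strand of the gene, with matches to the 3 motifs on either strand in capitals. On the other strand the CCAAT box reads ATTGG, while the CHR there reads TTCAAA.
Cdk1, the mitotic kinase, minus strand of chr10:69352913-69353062: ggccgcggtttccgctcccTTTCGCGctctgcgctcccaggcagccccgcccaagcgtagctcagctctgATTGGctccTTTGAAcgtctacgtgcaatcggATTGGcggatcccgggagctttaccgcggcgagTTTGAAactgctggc
Ccnb2, a B-type cyclin, minus strand of chr9:70421555-70421704: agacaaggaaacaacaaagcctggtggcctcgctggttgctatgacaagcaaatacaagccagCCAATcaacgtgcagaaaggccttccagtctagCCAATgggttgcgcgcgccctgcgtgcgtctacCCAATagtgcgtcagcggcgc
Cdc20, minus strand of chr4:118437344-118437493: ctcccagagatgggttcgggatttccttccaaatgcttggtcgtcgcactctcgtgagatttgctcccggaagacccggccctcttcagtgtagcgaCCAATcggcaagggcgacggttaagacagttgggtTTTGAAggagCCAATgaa
Kif11, a spindle motor, plus strand of chr19:37376232-37376381: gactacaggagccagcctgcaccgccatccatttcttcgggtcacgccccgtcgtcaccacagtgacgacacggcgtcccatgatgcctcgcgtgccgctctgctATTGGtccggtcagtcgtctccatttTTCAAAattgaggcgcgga
Mki67, minus strand of chr7:135716380-135716529: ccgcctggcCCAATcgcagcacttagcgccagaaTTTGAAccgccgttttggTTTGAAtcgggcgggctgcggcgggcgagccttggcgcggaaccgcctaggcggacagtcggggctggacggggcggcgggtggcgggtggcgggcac
E2f8, a repressor of the E2F family, minus strand of chr7:48881597-48881746: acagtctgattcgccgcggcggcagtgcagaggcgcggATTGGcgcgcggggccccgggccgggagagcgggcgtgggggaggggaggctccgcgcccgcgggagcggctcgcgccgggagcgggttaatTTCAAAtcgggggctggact
Ccnb2 had 3 CCAAT boxes in the stretch, and its TTTGAA matches lay outside it, still inside the window. Ccne1, the gene with the clearest difference between the spleens, was among those whose window held none of the 3 motifs.

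Every one of the 30 genes was well expressed in all 5 libraries, and their levels differed little between marrow and spleen. No gene differed by a ratio above 2 between any pair of libraries: the ratio of its highest to its lowest library was 1.40 in the median gene and 1.83 at most (Ccnb1). Together they took 0.827% of the reads in the control, 0.755% and 0.790% in UVB 1 and 2, 0.926% in tumor 1 and 0.749% in tumor 2. The order of the genes by level was also much alike, with a Spearman rho between 0.929 and 0.987 over the 30 genes for each pair of libraries, a description of values that share gene length and counting. Each gene had between 237 and 8754 reads in a library, which gives a counting error of 6.50% down to 1.07%. Such errors cover counting only, because these reads carry no molecular identifiers.

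**Figure D1:**
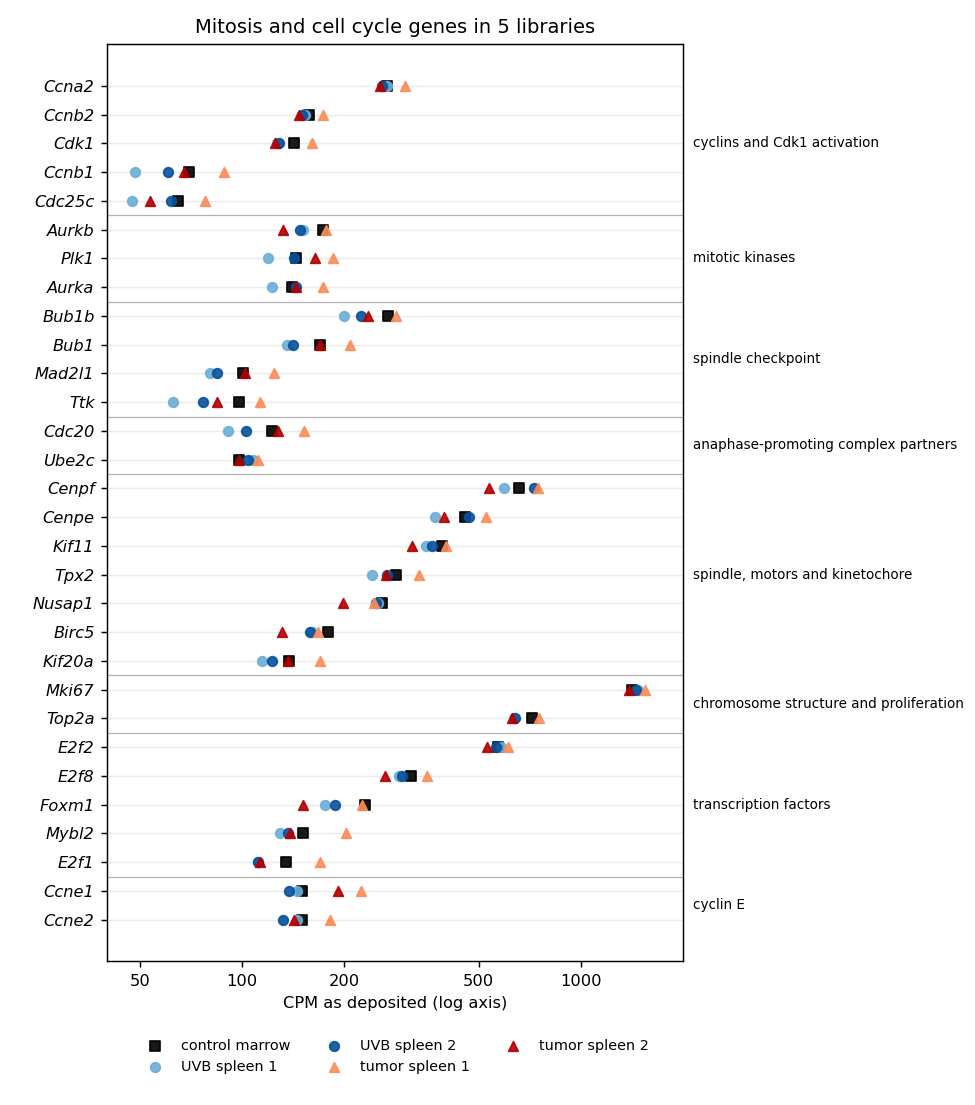
Level of each of the 30 genes in each library (horizontal axis, CPM as deposited, log scale), with 1 symbol per library and genes grouped by role. The symbols of a gene lie close together, and tumor 1 is the rightmost symbol for 27 of the 30 genes.

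Between genes, levels can be compared per length of exon, taken here as all annotated exons of a gene merged. This length can exceed that of the transcript in use, and its part in the order of the genes was not tested. Mad2l1 had 8390 such bases. On the scale of reads per kilobase of exon, averaged over the libraries, the 30 genes ran from 65.4 (Mad2l1) to 809 (Mki67), with a median of 281. E2f2 (652 reads per kilobase) and Ccnb2 (570 reads per kilobase) followed Mki67. The highest value of any gene with at least 200 exon bases was 955 to 1141 reads per kilobase, depending on the library. Mki67 thus stood not far below the most densely read genes of the libraries, and no source used here says if duplicate reads were removed. For Mki67, E2f2 and Ccnb2 the ratio of the highest to the lowest library was 1.12, 1.15 and 1.18, and the part of any upper limit on read density in these low ratios was not tested.

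UVB spleen was compared with control marrow to see how far splenic erythroid cells of irradiated mice differ from those of steady-state marrow. None of the 30 genes passed the test (limma on log2(CPM + 1), Benjamini-Hochberg adjusted p under 0.05 over all genes, 2 residual degrees of freedom), against 2.33% of all genes tested. None had an unadjusted p under 0.05 either, by limma or by edgeR's count test, beside 2276 and 2085 of all 15006 genes. The spread in this fit, and so each interval, was pooled over the UVB and tumor pairs. The tumor pair varied more (chi-square per degree of freedom 15.2, against 3.27 for UVB). With only the groups compared, 7 of the 30 genes had an unadjusted p under 0.05 by limma, beside 4942 of all 15006 genes. None of the 30 was called in that fit, beside 2984 of all 15006 genes. The log2 fold changes of 27 genes were below 0 and of 3 above, from -0.49 (Ttk) to 0.12 (Ube2c), with a median of -0.16 against -0.06 over all genes. Both UVB libraries lay below the control in 24 genes and above it in 2, while among all genes 47.9% lay below and 34.8% above. For 26 of the 30 genes the 95% interval stayed within a log2 change of 1 in either direction, so a 2-fold difference lay outside it. The median depended on the scaling: with all libraries scaled to a list of 14 erythroid genes it was -0.31, a scaling that also moved the median of all genes by -0.14.

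Tumor spleen was compared with the same control library, so the 2 comparisons are not independent. Again none of the 30 genes passed, against 3.79% of all genes. An unadjusted p under 0.05 was found for 1 (Ccne1) by limma and 0 by edgeR. Among all 15006 genes there were 3680 by limma and 3405 by edgeR. Log2 fold changes were above 0 in 17 genes and below 0 in 13, from -0.31 (Foxm1) to 0.46 (Ccne1), with a median of 0.03 against -0.01 over all genes. Both tumor libraries lay above the control in 6 genes and below it in 3, against 39.3% and 37.9% of all genes, and in 21 genes the control lay between the tumor libraries. The 95% interval stayed within a log2 change of 1 for 29 of the 30 genes. Without tumor 1 the median was -0.11, while without tumor 2 it was 0.20, with 1 tumor library left in each fit.

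The direct comparison of the spleens had 2 libraries on each side. Of the 30 genes 1 passed, Ccne1, which was higher in tumor spleen. Among all genes 17% were called in either direction and 12.3% were called higher, so the share of the 30 genes called was below the background. Log2 fold changes of tumor minus UVB were above 0 in 24 genes and below 0 in 6, from -0.18 (Nusap1) to 0.55 (Ccne1), with a median of 0.18 against 0.01 over all genes. Both tumor libraries exceeded both UVB libraries in 11 genes, and lay below both in 1, against 38.4% and 34.8% of all genes. The result rested on which libraries were used: the median was -0.02 without tumor 1 and 0.36 without tumor 2, with 1 tumor library left in each fit.

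**Figure D2:**
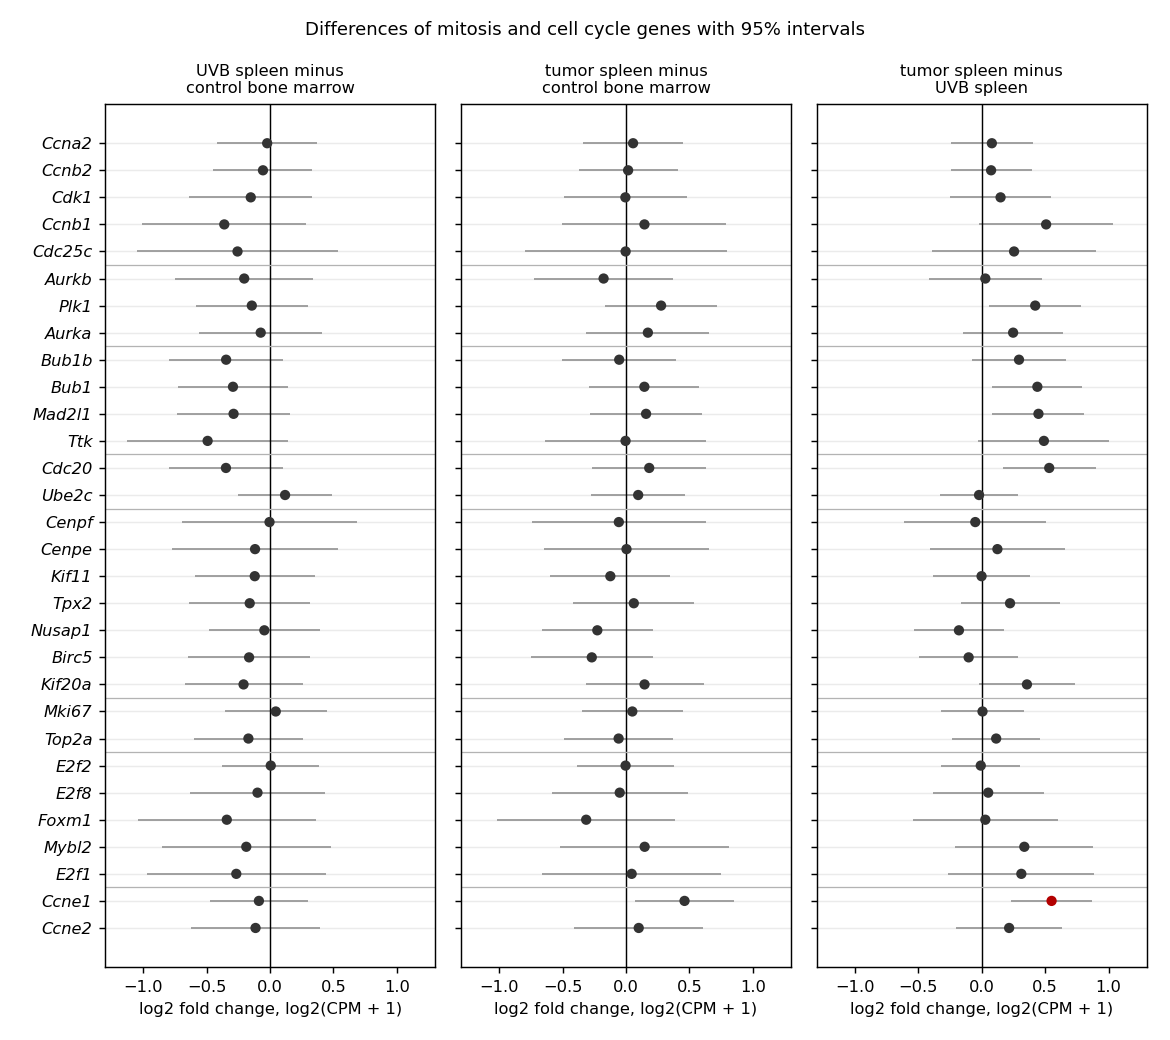
Log2 fold change of each of the 30 genes (horizontal axis, on the log2(CPM + 1) scale) in the 3 comparisons, with 95% intervals from the limma fit as bars and the gene called in red. Most intervals cross 0 and lie between -1 and 1, and only Ccne1, at 0.55 for tumor minus UVB spleen, is called.

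Cyclin E and the start of replication came first in the cycle and held the only call. Ccne1 (ENSMUSG00000002068, chr7:38097984-38107534, minus strand, GRCm38) encodes cyclin E1, and was at 150.2 CPM in the control, 145 and 138 CPM in UVB 1 and 2, and 224 and 192 CPM in tumor 1 and 2. Both tumor libraries were above the 3 others, which lay close together. The group means were 141 ± 5.22 CPM in UVB and 208 ± 23.1 CPM in tumor spleen (SD, n = 2 each), and the log2 fold change was 0.55 (SE 0.12, limma adjusted p = 0.0477). The call sat at the threshold: edgeR on the recovered reads gave an adjusted p of 0.0747, and over all alternatives it ran from 0.00123 to 0.308 while the log2 fold change stayed between 0.44 and 0.66. Its partner gene Ccne2, which encodes cyclin E2, was at 150.2 CPM in the control, 145 and 132 CPM in UVB 1 and 2, and 183 and 142 CPM in tumor 1 and 2. Here tumor 2 lay between UVB 1 and UVB 2, and the log2 fold change of 0.22 (SE 0.16) did not pass (limma adjusted p = 0.341).

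Of the transcription factors, E2f1, Foxm1 and Mybl2 had the widest ratios between the tumor libraries of all 30 genes, and E2f2 one of the narrowest. E2f1, an activator of replication genes, was at 134 CPM in the control, 112 and 111 CPM in UVB 1 and 2, and 170.3 and 113 CPM in tumor 1 and 2. Mybl2, which works with the MuvB complex on late cell cycle genes, was at 152 CPM, 129.9 and 136 CPM, and 203 and 139 CPM in the same order. For both genes tumor 2 lay just above the higher UVB library while tumor 1 stood apart. Foxm1, which drives mitotic genes, was at 231 CPM in the control, 176 and 188 CPM in UVB, and 227 and 152 CPM in tumor 1 and 2, so that the tumor libraries enclosed both UVB libraries. E2f2, the E2F member needed for orderly red cell maturation in mice, was flat at 570.1 CPM in the control, 581 and 564 CPM in UVB, and 610.4 and 530.3 CPM in tumor 1 and 2. E2f8 was at 316 CPM, 292 and 298 CPM, and 352 and 264 CPM. No log2 fold change of these 5 factors between the spleens exceeded 0.34 (Mybl2, SE 0.20), and none passed in any comparison.

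For cyclins A and B, Cdk1 and its activator, both UVB libraries lay below the control in all 5 genes, without a call, and 47.9% of all genes had this order. Ccnb1, the cyclin B1 gene, was at 69.6 CPM in the control, 48.2 and 60.4 CPM in UVB 1 and 2, and 88.3 and 67.3 CPM in tumor 1 and 2. Both tumor libraries lay above both UVB libraries, with a log2 fold change of 0.51 (SE 0.20) that did not pass (limma adjusted p = 0.128). The other 4 genes of this role overlapped between the spleens. Cdk1 was at 142 CPM, 127 and 129 CPM, and 161 and 125 CPM in control, UVB and tumor libraries. Ccna2, the cyclin A2 gene, was at 268 CPM, 267 and 259.9 CPM, and 303 and 256 CPM. Ccnb2, which encodes cyclin B2, was at 158 CPM, 153 and 150.3 CPM, and 173 and 147 CPM. In each of them tumor 2 was the lowest of the 5 libraries and tumor 1 the highest. Cdc25c, a phosphatase that switches on Cdk1, was at 64.7 CPM in the control, 47.2 and 61.7 CPM in UVB, and 77.9 and 53.5 CPM in tumor 1 and 2, and its log2 fold change between the spleens of 0.25 had an SE of 0.24.

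Among the mitotic kinases, Plk1, the polo-like kinase that acts on centrosomes and kinetochores, was at 144 CPM in the control, 119.6 and 142 CPM in UVB 1 and 2, and 186 and 164 CPM in tumor 1 and 2. The tumor libraries were the highest of the 5, and the log2 fold change against UVB was 0.42 (SE 0.14, limma adjusted p = 0.0919). Aurka, the kinase of the spindle poles, was at 140.4 CPM, 123 and 145 CPM, and 174 and 144 CPM, with tumor 2 just under UVB 2. Aurkb, the kinase of the chromosomal passenger complex, was at 173 CPM, 151 and 149 CPM, and 177 and 132 CPM, with both UVB libraries between the tumor libraries.

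In the 4 spindle checkpoint genes both UVB libraries lay below the control, as in 47.9% of all genes, and both tumor libraries lay above both UVB libraries, as in 38.4% of all genes. None of the 4 was called in either comparison. Ttk, the kinase that starts checkpoint signalling, was at 97.8 CPM in the control, 62.7 and 76.5 CPM in UVB 1 and 2, and 113 and 84.5 CPM in tumor 1 and 2. Bub1, a kinase of unattached kinetochores, was at 170.0 CPM, 136 and 141 CPM, and 208 and 170.0 CPM, and its relative Bub1b at 269 CPM, 200.1 and 224 CPM, and 286 and 236 CPM. Mad2l1, which encodes the Cdc20 inhibitor Mad2, was at 101 CPM, 80.3 and 84.2 CPM, and 124 and 102 CPM. The control lay above the UVB libraries and within or just under the range of the tumor libraries for each. Median log2 fold changes of the 4 genes were -0.32 for UVB minus control, 0.07 for tumor minus control and 0.44 for tumor minus UVB. The smallest adjusted p values by limma were 0.421 (Ttk, UVB minus control) and 0.0828 (Bub1, tumor minus UVB). Which of the 4 passed for tumor minus UVB depended on which tumor library was left in the fit. For Ttk the log2 fold change of UVB minus control was -0.49 with all libraries and with either tumor library left out. Its test depended on the tumor libraries, which set part of the spread.

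Of the partners of the anaphase-promoting complex, Cdc20 came closest to a call after Ccne1. It was at 123 CPM in the control, 90.6 and 103 CPM in UVB 1 and 2, and 153 and 128 CPM in tumor 1 and 2. The UVB libraries were the lowest and the tumor libraries the highest of the 5, and the log2 fold change between the spleens was 0.53 (SE 0.14, limma adjusted p = 0.0636, edgeR adjusted p = 0.0932). Ube2c, the ubiquitin-conjugating enzyme of the complex, was at 97.7 CPM in the control, 108 and 104 CPM in UVB, and 112 and 97.8 CPM in tumor 1 and 2. All 4 spleen libraries lay above its control value, tumor 2 by a fraction of 1 CPM, whereas for Cdc20 only the tumor libraries did. Its exons share 22.8% of their bases with Tnnc2 on the other strand.

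The 7 genes of the spindle, motors and kinetochore had a median log2 fold change of -0.0023 for tumor minus UVB. It was the closest to 0 of the 8 roles with CPM as deposited. Under TMM scaling it was -0.055, against -0.0025 for the transcription factors. Nusap1, a protein that bundles spindle microtubules, was the only one of the 30 genes with both tumor libraries below both UVB libraries, at 258 CPM in the control, 253 and 248 CPM in UVB, and 245 and 199 CPM in tumor 1 and 2. Its log2 fold change was -0.18 (SE 0.13, limma adjusted p = 0.349). Kif20a, a motor of late mitosis, had both tumor libraries above both UVB libraries, at 137 CPM, 115 and 123 CPM, and 169.9 and 136 CPM, without passing (log2 fold change 0.36, SE 0.14, limma adjusted p = 0.133). Its exons share 29.3% of their bases with Cdc23 on the other strand, a gene that was itself called higher in tumor spleen, and the strand setting of the counting is not given. In the other 5 genes the tumor libraries overlapped UVB. Kif11, the motor that pushes spindle poles apart, was at 389 CPM, 351 and 365 CPM, and 401 and 318 CPM. Tpx2, an activator of Aurka on the spindle, was at 285 CPM, 242 and 268 CPM, and 332 and 266 CPM. Birc5, or survivin, of the passenger complex, was at 179 CPM, 161 and 159 CPM, and 168 and 131 CPM. The last of these was highest in the control, as were Nusap1 and Foxm1, while the other 27 genes were highest in tumor 1. The kinetochore genes Cenpe, at 454 CPM, 373 and 469 CPM, and 527 and 394 CPM, and Cenpf, at 659.6 CPM, 593 and 729.6 CPM, and 748 and 538 CPM, also differed within the UVB pair.

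The common markers of dividing cells were among the least variable. Mki67, which encodes the Ki-67 protein of mitotic chromosome surfaces, was at 1420.3 CPM in the control, 1477 and 1453 CPM in UVB 1 and 2, and 1553 and 1392 CPM in tumor 1 and 2. The UVB libraries lay between the tumor libraries, and the log2 fold change between the spleens was 0.01 with a 95% interval of -0.32 to 0.33. Top2a, the topoisomerase that untangles sister chromosomes, was at 718 CPM, 636 and 639 CPM, and 756 and 629 CPM, with an interval of -0.24 to 0.46.

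The main pattern within these values was a difference between the tumor libraries. All 30 genes were higher in tumor 1 than in tumor 2, against 43.8% of all genes tested, and the median difference was 0.32 on the log2(CPM + 1) scale, against -0.05 over all genes. The ratio of tumor 1 to tumor 2 ran from 1.12 (Mki67) to 1.51 (E2f1), with a median of 1.25. It held for all 30 genes under each scaling tried, with a median of 0.37 under TMM, 0.34 under median-of-ratios and 0.20 under the erythroid list. In the UVB pair UVB 1 was below UVB 2 in 19 genes, against 46.8% of all genes, with a median difference of -0.05.

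Other lists differed between the tumor libraries too. Tumor 1 was above tumor 2 in all 17 further kinetochore and centromere genes, all 22 further kinesin and spindle assembly genes and all 26 replication genes, with median log2 differences of 0.39, 0.41 and 0.27. It was also above in all 8 inhibitors of cyclin-dependent kinases (median 0.42), which hold back the cycle. In 10 genes of early erythroid and progenitor cells tumor 1 was above in 2, with a median of -0.38. In 14 erythroid genes it was above in 10, with a median of 0.17. Tumor 1 was below tumor 2 in all 10 B cell genes (median -1.59), all 13 macrophage genes (-0.55) and all 10 T and NK cell genes (-0.58). The T and NK cell genes were near the floor, with a median level of 0.44 CPM in tumor 1 and 1.27 CPM in tumor 2. Of these, Cd3d, Cd8b1, Ncr1 and Klrb1c had 0 reads in tumor 1. In the control Cd3g, Cd3d and Cd8a had 0 reads, as did Cd8b1 in UVB 2. The summed macrophage level was 1455 CPM in tumor 1, 2082 CPM in tumor 2, 3624 and 3178 CPM in the UVB libraries and 2760 CPM in the control. Tumor 1 thus had the most mitotic transcripts and the fewest B cell and macrophage transcripts of the 5 libraries. The strain label also differs between the tumor libraries, and whether the mice differed in strain is not known. The part of cell content or strain in the difference was not tested.

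**Figure D3:**
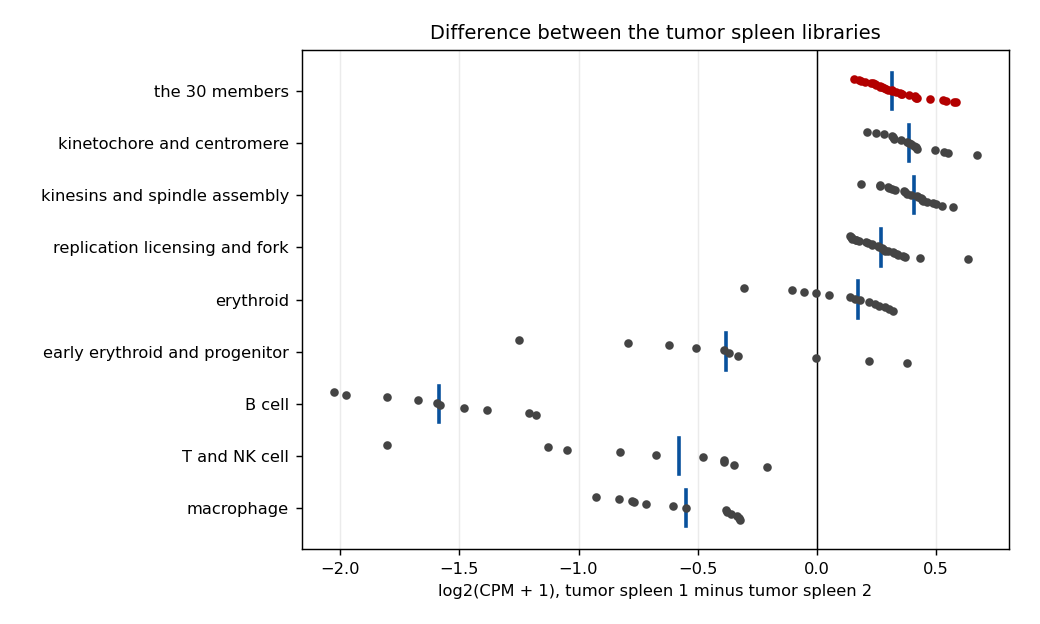
Difference between tumor 1 and tumor 2 (horizontal axis, log2(CPM + 1) of tumor 1 minus tumor 2) for each gene of 9 lists, with 1 point per gene and the list's median as a vertical bar. The 30 mitosis genes (red), with a median of 0.32, lie right of 0 with the kinetochore, spindle and replication lists, and the B cell, T and NK cell and macrophage genes lie left of 0.

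Genes that act beside the 30 in the cycle were read from 9 lists. Against the control no gene of these lists was called in UVB spleen, beside 2.33% of all genes. In tumor spleen 1 was called, beside 3.79% of all genes. Cep55, a protein of the final cut between daughter cells, was at 69.1 CPM in the control, 11.1 and 10.2 CPM in UVB 1 and 2, and 2.31 and 6.87 CPM in tumor 1 and 2. It was lower in tumor spleen with a log2 fold change of -3.78 (SE 0.57, limma adjusted p = 0.0492, edgeR adjusted p = 0.0563), and all 4 spleen libraries lay far below the control. In UVB spleen its log2 fold change was -2.59, and it did not pass (limma adjusted p = 0.144).

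Between the spleens, 12.3% of all genes were called higher in tumor spleen and 17% in either direction, and the counts of the neighbouring lists stand beside these shares. Of 26 genes that license and run the replication fork 11 were called higher in tumor spleen and 0 lower, with a median log2 fold change of 0.51, against the 1 of 30 and median of 0.18 in the mitosis group. Mcm10, which helps to start the fork, was at 177 CPM in the control, 113 and 121 CPM in UVB, and 249.8 and 209 CPM in tumor 1 and 2 (log2 fold change 0.96, SE 0.13, limma adjusted p = 0.0249). Gins2, a subunit of the fork helicase, was at 45.5 CPM, 22.8 and 21.3 CPM, and 59.1 and 47.0 CPM (log2 fold change 1.22, SE 0.17, adjusted p = 0.0279). Both genes stood lowest in the UVB libraries, and highest in the tumor libraries. EdgeR called 4 of the 26, TMM scaling left 5 and median-of-ratios scaling 7. Among all 15006 genes 1324, 1543 and 1546 were called higher in these settings. The count of replication genes called also depended on which libraries were in the fit. Whether replication and mitosis genes differed from each other was not tested.

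Of 10 G1 cyclins and kinases 4 were called higher in tumor than in UVB spleen, by limma and by edgeR alike. Among all genes 12.3% were called higher by limma, and 1324 of 15006 by edgeR. Cdc25a, a phosphatase that switches on Cdk2, was at 141 CPM in the control, 92.6 and 93.8 CPM in UVB 1 and 2, and 229 and 207 CPM in tumor 1 and 2 (log2 fold change 1.21, SE 0.10, limma adjusted p = 0.0200). Cdk6, a partner of D-type cyclins, was at 94.4 CPM, 30.1 and 42.1 CPM, and 102 and 131 CPM (1.67, SE 0.22, adjusted p = 0.0249), and was the higher in tumor 2, unlike the 30 genes. The other calls were Cdk4 (log2 fold change 0.70) and Wee1, which restrains Cdk1 (0.84). Of 8 inhibitors of these kinases 1 was called, a share near the 17% of all genes called in either direction. Cdkn1b, which encodes p27, the inhibitor of cyclin E with Cdk2, was at 273 CPM in the control, 321 and 305 CPM in UVB, and 203 and 168 CPM in tumor 1 and 2, and was lower in tumor spleen (log2 fold change -0.76, SE 0.13, limma adjusted p = 0.0334).

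Of 17 genes of the Rb, E2F, DREAM and Myb families 4 were called higher in tumor spleen, beside 12.3% of all genes. E2f3 was at 92.6 CPM in the control, 58.7 and 61.7 CPM in UVB, and 141 and 116 CPM in tumor 1 and 2 (log2 fold change 1.08, SE 0.14, limma adjusted p = 0.0232). The others were E2f6, Tfdp1, the E2F dimer partner, and Myb, a factor of immature blood cells that was highest in the control at 251 CPM. Of 15 subunits of the anaphase-promoting complex 4 were called higher by limma (Anapc1, Anapc7, Cdc16 and Cdc23). EdgeR called 1 of these, Anapc1, and called 1324 of all 15006 genes higher. Anapc1 was at 337 CPM in the control, 259 and 277 CPM in UVB, and 467 and 427 CPM in tumor 1 and 2. Of 17 kinetochore genes 1 was called higher, a share below that of all genes. It was Zwilch, a part of the complex that brings dynein to kinetochores, with a log2 fold change of 0.76. None of 22 kinesin and spindle assembly, 15 condensin and cohesin or 8 cytokinesis genes was called between the spleens by limma. At an unadjusted p under 0.05 there were 2, 2 and 1 of them, beside 6326 of all 15006 genes. Marker lists of other cells differed between the spleens beside these calls. Of 10 genes of early erythroid and progenitor cells 8 were tested, 6 with log2 fold changes above 0 and 2 below. Gata2, Kit and Myb were called higher, and Myb is the gene already counted with the E2F genes. The control held 89.3 CPM of Kit, UVB 1 and 2 held 38.1 and 24.3 CPM, and tumor 1 and 2 held 75.0 and 97.1 CPM (log2 fold change 1.46, limma adjusted p = 0.0365). The genes below 0, Csf2rb (-1.17) and Meis1 (-1.08), had both tumor libraries below both UVB libraries, as in 34.8% of all genes, and did not pass. Among all 15006 genes tested, 705 were called lower in tumor than in UVB spleen. All 13 macrophage genes had log2 fold changes below 0 (median -0.87), and 5 were called lower. All 10 B cell genes were below 0 (median -1.28) with none called, and 9 of 10 germinal center B and plasma cell genes were below 0 (median -1.18) with Prdm1 called lower. The part of these shifts in the calls was not tested.

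**Figure D4:**
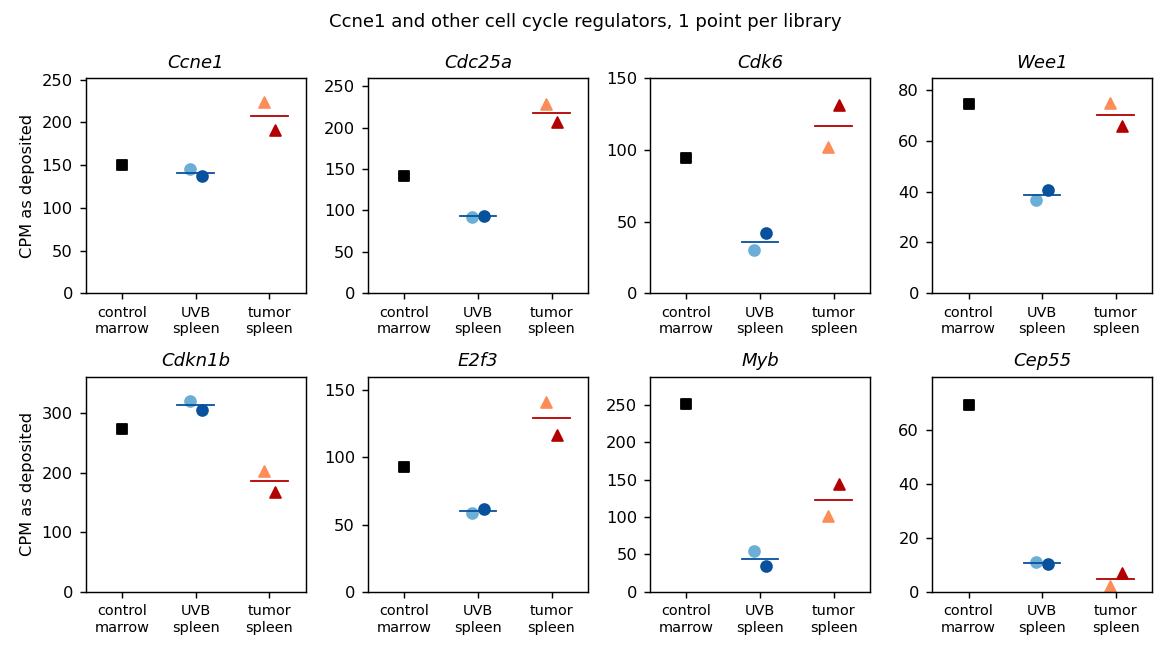
Level of Ccne1 and 7 other cell cycle regulators (vertical axes, CPM as deposited, from 0), with 1 point per library and a line at each spleen group's mean. In Ccne1, Cdc25a and E2f3 the tumor libraries are the highest, in Cdkn1b they are the lowest, and Cep55 is at 69.1 CPM in the control and at most 11.1 CPM in the spleens.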

How the data were processed

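The deposited tables, 1 for UVB and 1 for tumor, each held 39179 genes and the same control library. Values were linear CPM deposited by the authors, who had added 1 read to every gene, as the values show. The deposited log2 ratios of each spleen library to the control were not used. STAR, HTSeq and mm10 are named in the submitters' processing notes, but not their versions, the annotation, the strand setting or any duplicate removal (not given in the sources used here). Divided by what 1 read adds, 100% of values came out whole to a relative 1e-06, which recovered the reads. Genes averaging at least 1 CPM (15006) were tested by limma 3.58.1 (trend) on log2(CPM + 1), two-sided, all 5 libraries in 1 fit, 2 residual degrees of freedom, Benjamini-Hochberg adjustment. Fold changes on this scale understate those of low genes. The lone control was assumed to vary like the spleen pairs. EdgeR 4.0.16 (quasi-likelihood) on the recovered reads was an alternative, and called 116, 192 and 2008 genes for UVB minus control, tumor minus control and tumor minus UVB. Both procedures were run on simulated reads with changes far larger than that of Ccne1, so this run cannot bear on its call.

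Depths were 5694656 reads in genes for the control, 5003923 and 5921270 for UVB 1 and 2, and 5597803 and 5489850 for tumor 1 and 2, so 1 read was worth 0.168 to 0.198 CPM. Positions and exon lengths are from GENCODE M21 (GRCm38). Replicates differed beyond sampling noise (chi-square per degree of freedom 3.27 for UVB, 15.2 for tumor), so none was counted as a repeat. UVB and tumor labels share replicate numbers, and no label says if these pair the samples. The correlation of deviations was -0.11, which cannot settle this with 2 libraries a group. The genes and lists were chosen with earlier results of these data known. By rule every one of the 30 genes was named, and of each further list its called genes or the pair with the smallest p, of which the text describes some.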

Additional observations from a re-analysis of the deposited data

Results flagged for a closer look

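Ccne1 was picked out because its level differed between the treatments by a direct test. Its log2 fold change of tumor minus UVB spleen was 0.55 (limma adjusted p = 0.0477), with both tumor libraries above both UVB libraries. Groups of 1 and 2 libraries are too small for a test of single outlying samples.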

How the results depend on the processing

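The direction of the median over the 30 genes held for UVB minus control in every setting (-0.31 to -0.12). Genes called for UVB minus control (349) were 101 with a pseudocount of 0.25, 541 without a filter, 67 at a mean of at least 5 CPM, 116 by edgeR and 2984 with only the groups compared. For tumor minus control (569) they were 232, 798, 70 and 192 in the first 4 of these settings, 0 with only the groups compared (limma, 2077 at an unadjusted p under 0.05) and 322 under the erythroid scaling. For tumor minus UVB (2557) they were 1556 without a filter. Leaving out 1 library gave ranges of 0 to 3056, 0 to 5383 and 0 to 7888 genes, with 1 residual degree of freedom, and 0 whenever a UVB library was left out. Of the 30 genes, 0 to 1, 0 to 3 and 0 to 17 were called in these fits, and medians for tumor minus UVB ran from -0.016 to 0.36. The call of Ccne1 was lost, with 0 of 30 called, without a filter, under TMM, under median-of-ratios scaling, by edgeR and without UVB 1 or UVB 2 (limma adjusted p = 0.308 and 0.293). Higher and lower calls for tumor minus UVB were 1852 and 705, but 1543 and 1016 under TMM and 2145 and 346 under the erythroid scaling. With the replicate number as a block, 0 genes and 0 of the 30 were called, so Ccne1 was lost (limma, 5502 and 3 at an unadjusted p under 0.05). No label says if the number pairs the samples. A block with crossed numbers called 3049 genes and 1 of the 30, which was Cdc20 and not Ccne1. The crossed block and the erythroid scaling were chosen after seeing the data. Sign changes within 1 SE are not listed. E2f2 turned to -0.15 (UVB minus control) and 0.10 (tumor minus UVB) under the erythroid scaling. Leaving out 1 library turned 8 genes for tumor minus control, with ranges of -0.20 to 0.21 (Cenpe), -0.12 to 0.42 (Mybl2), -0.25 to 0.34 (E2f1), -0.18 to 0.17 (Cdk1), -0.27 to 0.26 (Cdc25c), -0.21 to 0.20 (Ttk), -0.29 to 0.18 (Cenpf) and -0.25 to 0.16 (E2f8). For tumor minus UVB it turned 6, with -0.012 to 0.52 (Cdc25c), -0.18 to 0.24 (Aurkb), -0.26 to 0.32 (Foxm1), -0.16 to 0.26 (E2f8), -0.17 to 0.17 (Kif11) and -0.29 to 0.19 (Cenpf). The cause of these changes was not tested, and 2 libraries a group limit every call.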
